A study of Mus musculus with 22 samples.

Results

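Far poly(A) site pairs are stretches of a chromosome strand on which RNA 3′ ends were read at exactly 2 well-used positions lying at least 1000 nt apart. To find them, the reads of the 20 3′READS libraries of the series were pooled by position, and positions with at least 200 pooled reads outside the mitochondrial genome were kept. Kept positions on the same chromosome and strand were chained over gaps of up to 5000 nt, and chains of exactly 2 kept positions at least 1000 nt apart were taken. The rule found 743 pairs, 19.9% of the 3736 chains that held 2 or more kept positions, and they carried 6.10% of all reads. In each pair the site nearer the start of the RNA is called proximal and the other distal, and the distal share is the percentage of the pair's reads that ended at the distal site. The pairs were selected on pooled read counts and distance, so both are given only as a description.

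The study measured poly(A) sites in mouse cell lines with 3′READS, a method that reads the last bases of an RNA before its poly(A) tail and so gives counts of RNA 3′ ends by position. Each of 10 groups had 2 libraries. C2C12 myoblasts were labelled untreated or siPcf11, each as total RNA (called input in the titles) and as newly made RNA, pulled out after the cells had been given 50 µM 4-thiouridine (4sU) for 1 h. NIH3T3 fibroblasts were labelled untreated or siPcf11, 4T1 mammary carcinoma cells untreated or Pcf11-IPAKO, and a further C2C12 set proliferating or differentiated. No control siRNA is named, so in each siPcf11 comparison an effect of the transfection itself cannot be told apart. Whether the 4T1 Pcf11-IPAKO cells are 1 clone, whether total and 4sU libraries came from the same cultures and whether replicate libraries stem from separate cultures is not given in the sources used here, so that p-values reflect library-to-library spread alone, and this may be technical. All lines carry the strain label C57BL/6. The files list positions in the mouse build mm9 without gene names, so neither the level of Pcf11 nor the markers of each cell type were checked here, and pairs are named by their positions. On the minus strand the distal site is the lower coordinate.

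Most RNA polymerase II transcripts end where the nascent RNA is cut and a poly(A) tail is added, and many genes have more than 1 such place. Use of an early site gives a shorter 3′ UTR, or, when the site lies in an intron, a truncated transcript, while use of a late site gives a longer RNA. PCF11 is a subunit of the cleavage machinery that binds the C-terminal domain of RNA polymerase II and also takes part in ending transcription. Sites far apart are separated by more transcription time than close ones. Muscle differentiation is known for a shift toward late sites.

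The 2 sites of a pair lay 1000 to 4994 nt apart, with a median of 2096 nt, and 380 pairs were on the plus strand. A pair held 415 to 65490 pooled reads, with a median of 2295. Neither end dominated the set: the distal site held more of the pooled reads in 388 pairs and fewer in 352, and its pooled share had a median of 52.0%. It was under 20% in 146 pairs and over 80% in 164. Between the 2 sites a median of 7 further positions were listed, holding a median of 1.42% of the reads. In 94 pairs these minor positions held over 10%. With no mm9 annotation used here, a distal site may be the end of the next gene on the strand, which a share cannot tell from a later end of the same gene.

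Libraries held 1887532 to 4432717 reads, of which these pairs took 5.40% to 6.70%. The files do not list the same positions for each cell line: both sites were listed in 718 pairs for C2C12, 620 for NIH3T3 and 645 for 4T1, and in 549 pairs for all of these lines. Tests of distal use and of level stay within a line, apart from the test of the responses of C2C12 against NIH3T3. As a check, positions within 24 nt were joined before the rule was applied, which gave 851 pairs, 730 of the 743 among them.

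At the edge of the distance rule, chr17:27716332-27717332, with sites 1000 nt apart, had a pooled distal share of 50.5% and chr11:87897230-87898231, at 1001 nt, 12.8%. Just outside it, chr8:73998991-73999990, at 1 nt less than the limit, had 24.3% and chr11:97550135-97551129, at 994 nt, 70.3%. At the edge of the read rule, chr8:77554591-77555871 and chrX:131122702-131124303 each had a site with 200 pooled reads, and chr11:97545397-97546764 and chr16:33768225-33771662 fell outside with 199.

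The distal share of far pairs was higher in every siPcf11 library and in both differentiated libraries than in their reference libraries, and lower in both 4T1 Pcf11-IPAKO libraries. Over the 368 pairs with at least 20 reads in all 20 libraries, the mean distal share was 47.9% and 48.5% in the C2C12 total RNA controls and 54.5% and 54.7% in the siPcf11 libraries. In 4sU RNA it was 49.2% and 49.7% in controls and 54.6% and 55.2% under siPcf11. In NIH3T3 it was 49.8% and 49.7% in controls and 54.6% and 56.0% under siPcf11. It was 46.6% and 47.2% in 4T1 controls and 43.4% and 44.5% in Pcf11-IPAKO cells, and 48.5% and 48.9% in proliferating against 52.7% and 52.8% in differentiated C2C12 cells. In none of these 5 comparisons did the libraries of the groups overlap, the strongest order that 2 libraries against 2 can show, for which an exact two-sided permutation test gives p = 0.333.

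**Figure D1:**
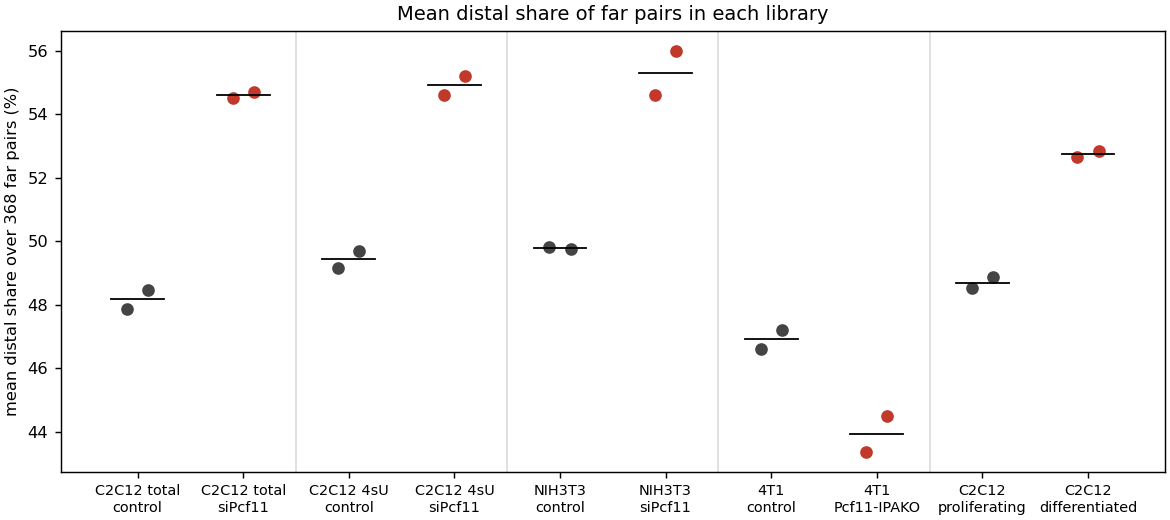
Mean distal share (%, axis not starting at 0) over the 368 far pairs with 20 or more reads in every library; each point is a library, the bar is the mean of the group, and reference groups are dark. All 6 siPcf11 libraries lie between 54.5% and 56.0%, the 6 controls of the same cells between 47.9% and 49.8%, and the Pcf11-IPAKO libraries at 43.4% and 44.5%.

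Taken per comparison, over pairs with 20 or more reads in each library compared, the mean distal share of 578 pairs in C2C12 total RNA was 48.5% ± 0.625 in controls and 56.6% ± 0.145 under siPcf11 (SD, n = 2), a difference of 8.14 percentage points. The difference was 6.59 points in 4sU RNA (586 pairs), 6.40 in NIH3T3 (578 pairs), 4.65 in differentiation (681 pairs) and -2.89 in 4T1 (491 pairs). Pairs of 200 to under 1000 nt moved less in the same libraries: 2.62 points in C2C12 total RNA, 2.40 in 4sU RNA, 3.22 in NIH3T3 and 0.563 in differentiation. In 4T1 their change of -2.37 points was near that of far pairs, whose group SDs were 0.838 and 0.927. These closer pairs began at a higher distal share in C2C12 total RNA controls, 55.7%. A test of the difference between far and closer pairs was not run, as pairs are not replicates.

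Single pairs were tested with edgeR's diffSpliceDGE, which asks whether the distal site changed by more or less than its whole chain, over all chains of 2 or more kept sites, calling a pair at a Benjamini-Hochberg adjusted p under 0.05. A called pair is said to have moved to the distal or to the proximal site. This test sets the distal site against the whole pair, so it has little room where the distal site already holds most reads. The same fit gives a pair-level F test that weighs both sites. It was added after the data were seen, all pairs called by the main test are also called by it, and its counts stand beside the main ones. Counts at an unadjusted p or from the alternative package DESeq2 are given without the share over all chains or sites.

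In C2C12 total RNA, far pairs moved mainly to the distal site under siPcf11. Of 705 pairs tested, 125 moved to the distal site (17.7%, against 12.1% of all chains tested), and the opposite move was called for 28 (3.97%, against 3.54%). Among the 578 pairs with enough reads, both siPcf11 libraries lay above both controls in 317 and below them in 112, which is 54.8% and 19.4%, beside 36.8% and 17.0% of all chains. The pair-level test called 268 to the distal site (38.0%, against 24.9% of all chains) and 59 to the proximal site (8.37%, against 6.88%). Among 2-site chains of 200 to under 1000 nt, the main test called 40 distal and 13 proximal of 612. The share called grew with depth: it was 18.8% of far pairs whose shallowest library held 20 to under 50 reads, 25.7% at 50 to under 200 reads and 37.0% at 200 or more. The median change of the distal share shrank in the same order, at 10.3, 5.38 and 2.56 percentage points. At 200 or more reads it was also smallest in the other comparisons. It was then 1.61 points in 4sU RNA, 2.47 in NIH3T3, 1.64 in differentiation and -0.709 in 4T1. The pooled reads of the rule include those of these libraries: 49 pairs owed a kept site to reads of the total RNA controls and 45 to those of the siPcf11 libraries. Counted alike, with the reference group first, it was 61 and 48 pairs in 4sU RNA and 79 and 77 in NIH3T3. The counts were 56 and 60 in 4T1 and 95 and 109 in differentiation.

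The largest rise was at chr19:5455946-5458049 (plus strand), sites 2103 nt apart. Its distal share was 24.2% and 19.2% in the controls and 91.7% and 88.3% under siPcf11. The proximal site held a mean of 266 CPM (counts scaled by the library totals) in controls and 53.4 under siPcf11, and the distal site 74.4 and 492. Both ends changed, in opposite directions: the proximal site fell by 2.08 ± 0.16 (SE) on the log2 scale after TMM scaling and the distal site rose by 2.96 ± 0.15, with an adjusted p of 9.71e-42 for the pair (edgeR).

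At chrX:130987939-130991112 (plus strand, 3173 nt) the distal share was 21.1% and 25.5% in controls and 91.3% and 85.3% under siPcf11 (adjusted p = 0.0001, edgeR). At chr8:73345323-73347439 (plus strand) it was 17.2% and 32.7% against 100% and 76.7%, with 26 reads in the shallowest library. In both pairs the larger change was at the proximal site, which fell by 2.89 ± 0.53 at the first and by 3.23 ± 0.50 at the second on the log2 scale, while the distal sites rose by 1.59 ± 0.42 and 1.17 ± 0.40. At chr13:91933341-91936138 (minus strand) the distal share was 27.3% and 13.0% in controls and 92.0% and 73.7% under siPcf11, and at chr1:44201362-44202884 (plus strand) 21.2% and 18.4% against 89.7% and 64.7%. Here the distal site changed more, rising by 2.82 ± 0.51 and 2.62 ± 0.43, and the proximal sites fell by 1.23 ± 0.53 and 1.03 ± 0.42. In each of these pairs both siPcf11 libraries lay far above both controls, although the call at chr13:91933341-91936138 was lost without the second control library (adjusted p = 0.0845, edgeR).

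Falls of the distal share were fewer, and the largest was 58.6 percentage points, against 68.3 for the largest rise. That fall was at chr2:104266638-104269935 (minus strand, 3297 nt), where the share was 91.0% and 91.3% in controls and 34.1% and 31.0% under siPcf11 (adjusted p = 3.97e-06, edgeR). Its distal site fell from 58.4 to 7.37 CPM while its proximal site rose from 5.66 to 15.3 CPM. At chr2:32425271-32429091 (plus strand, 3820 nt) the share was 86.1% and 81.7% against 32.5% and 32.1%, with the proximal site going from 16.8 to 83.8 CPM. At chr11:100953513-100957839 (minus strand, 4326 nt) it was 54.5% and 46.8% against 0% and 8.82%, and here the distal site fell by 3.30 ± 0.69 and the proximal site rose by 0.89 ± 0.35 on the log2 scale. At chr19:6059522-6062472 (plus strand) the share was 82.4% and 83.1% against 54.3% and 37.1%, with the distal site falling from 55.8 to 7.68 CPM and the proximal site at 11.7 and 8.72 CPM, which did not pass the test. The call of this pair was lost without either control library and without the second siPcf11 library (adjusted p up to 0.402, edgeR).

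**Figure D2:**
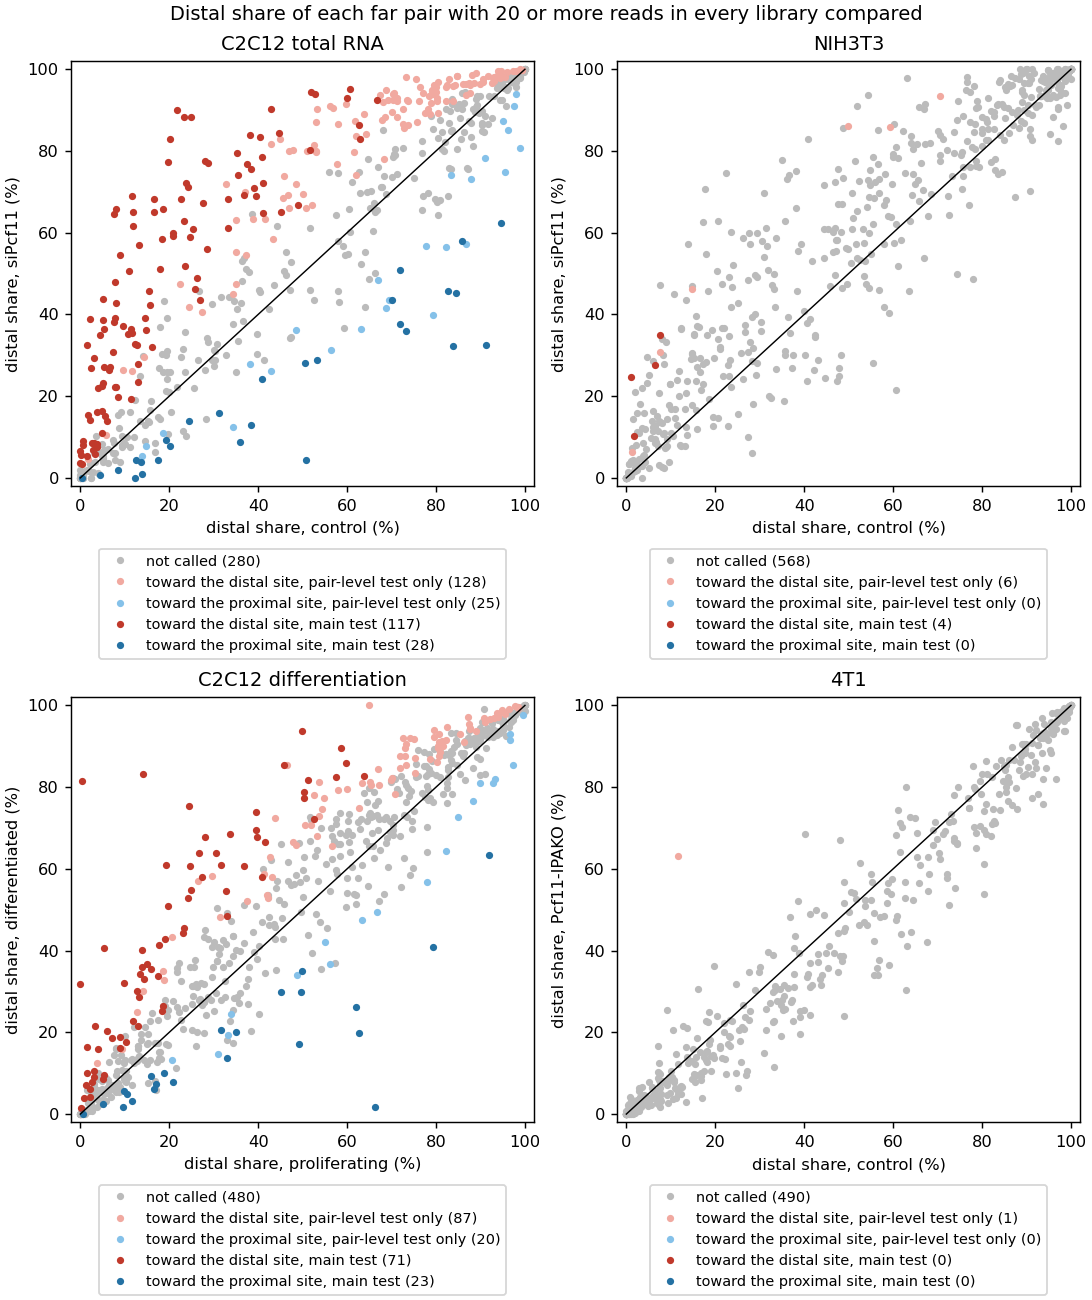
Distal share (%) of each far pair in the reference group (x axis) and the other group (y axis), as means of 2 libraries, for pairs with 20 or more reads in every library compared; dark colours mark pairs called by the main test, light colours those called only by the pair-level test, and the diagonal is no change. In C2C12 total RNA 117 plotted pairs were called distal and 28 proximal, and in 4T1 none by the main test.

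Which end moved differed between pairs. Of the 122 pairs called to the distal site in C2C12 total RNA with both ends tested for level, 49 had a lower proximal and a higher distal site, 40 only a higher distal site, 20 only a lower proximal site, 12 had both ends higher and 1 neither. Of 27 called to the proximal site, 13 had a lower distal and a higher proximal site, 8 only a lower distal site, 2 only a higher proximal site and 4 had both ends lower. With the pair-level test, which also reaches pairs of high distal share, 249 were called to the distal site with both ends tested: 65 with both ends moving apart, 85 with only the distal site higher and 68 with only the proximal site lower.

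Over all far pairs, proximal sites leaned down and distal sites up. Under siPcf11 in C2C12 total RNA 266 of 661 proximal sites fell and 81 rose (edgeR, adjusted p under 0.05), and 231 of 665 distal sites rose and 140 fell, where 24.7% of all sites tested rose and 26.4% fell. The median log2 change was -0.47 for proximal and 0.29 for distal sites. These values rest on TMM scaling. With library totals the median of all sites shifts by -0.23, 55 proximal sites rose and 313 fell, and the distal sites were nearly balanced, with 196 rising, 171 falling and a median of 0.06. By library totals the median of the proximal sites was -0.70. The summed level of the 2 sites was taken in CPM by library totals. Its median log2 change was -0.05 in pairs called to the distal site and -0.53 in those called to the proximal site. In pairs not called it was -0.15, which is also the median over all chains. Quartiles were -0.83 and 0.51 in pairs called to the distal site, and -0.70 and 0.33 over all chains.

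**Figure D3:**
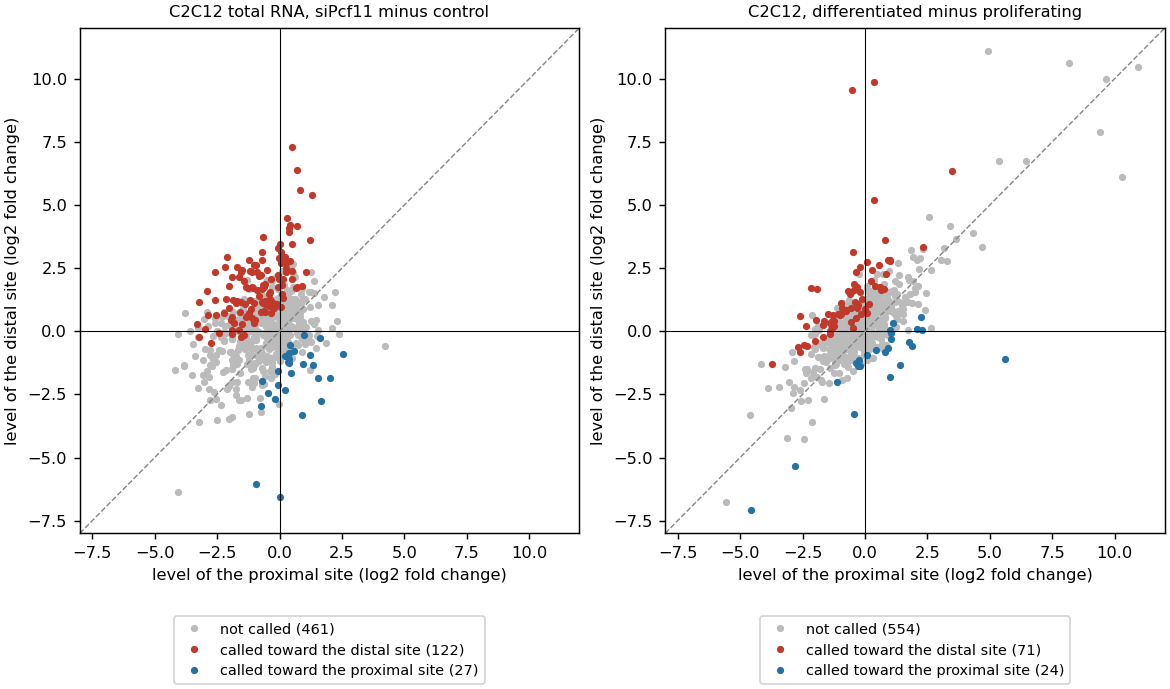
Log2 fold change of the proximal site (x axis) and the distal site (y axis) of each far pair with both ends tested, in C2C12 under siPcf11 (left) and in differentiation (right). Points above the dashed diagonal have a higher signed log2 fold change at the distal site than at the proximal one, whichever site changed more in size. Of the 122 pairs called to the distal site under siPcf11, 49 had a fallen proximal and a risen distal site.

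In 4sU RNA, labelled over the last 1 h before harvest, far pairs also moved mainly to the distal site. Of 705 far pairs, 95 moved to the distal site (13.5%, against 8.52% of all chains), and 24 the other way (3.40%, against 3.28%). At pair level the counts were 220 (31.2%, against 20.3%) and 57 (8.09%, against 6.58%). Proximal sites fell in 243 of 661 cases and rose in 77 (edgeR, TMM scaling), beside 26.4% and 23.5% of all sites, and 211 of 665 distal sites rose and 157 fell. With library totals, which shift the median of all sites by -0.24, the distal sites turned to 164 rising and 201 falling, while the proximal sites stayed at 53 and 306. Without the second 4sU control library the main counts were 63 and 15.

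At chr17:35667951-35671592 (plus strand, 3641 nt) the distal share in 4sU RNA was 0% and 1.67% in controls and 50.8% and 57.7% under siPcf11 (adjusted p = 8.58e-22, edgeR), and in total RNA 1.13% and 1.88% against 25.8% and 39.4%. The proximal site fell in both, from 68.2 to 12.1 CPM in 4sU RNA and from 70.3 to 10.2 CPM in total RNA, and the distal site rose, in 4sU RNA from 0.565 to 14.3 CPM. At chr11:102055732-102057061 (minus strand) the distal share in 4sU RNA was 4.55% and 0% in controls and 59.0% and 67.4% under siPcf11. There both ends rose, the distal site from 0.195 to 24.8 CPM and the proximal site from 8.80 to 14.2 CPM. At chr19:46386513-46389864 (plus strand) the share was 33.3% and 25.5% against 83.1% and 86.1%, with the proximal site falling from 42.7 to 5.13 CPM and the distal site rising from 18.1 to 28.3 CPM.

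The falls in 4sU RNA include chr11:100953513-100957839, at 56.2% and 54.7% in controls against 0% and 2.63% under siPcf11, and chr2:32425271-32429091, at 84.6% and 89.1% against 45.6% and 41.0%. At chr19:5795690-5798394 (minus strand) the share was 81.0% and 63.5% in 4sU controls against 24.2% and 23.5% under siPcf11 (adjusted p = 0.00175, edgeR, and 0.0530 without the second siPcf11 library). In total RNA the same pair stood at 25.0% and 33.3% against 10.0% and 16.0%, which was not called (adjusted p = 0.49, edgeR, with 10 reads in the shallowest library).

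Responses in 4sU and total RNA ran closely together. They share no library. Across the 554 pairs with enough reads in both, the change of the distal share in total RNA and in 4sU RNA had Pearson's r 0.848 and Spearman's rho 0.846, as a description across pairs, which share libraries and are not independent. Of the 125 pairs moved to the distal site in total RNA, 80 were also moved to it in 4sU RNA, 64.0% of the first list and 84.2% of the second, and 16 pairs moved to the proximal site in both. Of all 705 far pairs tested, 17.7% moved to the distal site in total RNA and 13.5% in 4sU RNA. The difference between the responses was tested as an interaction: 2 of 705 far pairs passed (edgeR), both with the smaller rise in 4sU RNA, where 0.0655% of all chains passed that way and 0.00% the other.

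Between newly made and total RNA of the control cells, far pairs differed less. The mean distal share of 647 pairs was 47.7% ± 0.596 in total and 49.9% ± 0.532 in 4sU RNA. Of 705 pairs, 15 had more distal use in 4sU RNA (2.13%, against 2.36% of all chains) and 5 less (0.709%, against 1.05%), shares close to the background. At pair level 56 and 19 were called (7.94% and 2.70%, against 6.58% and 3.83%). Of 665 distal sites 104 were at a higher level in 4sU RNA and 58 at a lower one, and of 661 proximal sites 60 and 61 (edgeR, TMM scaling), beside 12.4% and 9.68% of all sites. By library totals the proximal sites leaned lower, at 49 and 77, and the distal sites still higher, at 93 and 69. This comparison shares its control libraries with the siPcf11 comparisons above. At chr3:151895735-151899791 (plus strand, 4056 nt) the distal share was 7.59% and 11.7% in total and 39.2% and 42.3% in 4sU RNA, the proximal site standing at 65.7 and 59.9 CPM and the distal site at 7.09 and 41.5 CPM. At chr5:28742641-28745784 (plus strand) it was 13.2% and 10.5% against 42.0% and 44.8%. At chr9:20694005-20696622 (plus strand) 4sU RNA had the lower share, 60.0% and 58.2% against 84.1% and 82.8% in total RNA, a call lost in all 4 fits with a library left out. Fewer far pairs than these 20 were called in each fit with 1 library left out. How many of the 20 were among them was not counted.

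In NIH3T3 the mean distal share of 578 far pairs was 51.4% ± 0.218 in controls and 57.8% ± 0.890 under siPcf11, but few single pairs passed. Of 612 pairs tested, 4 moved to the distal site (0.654%, against 0.220% of all chains) and 0 to the proximal site (against 0.00%). The pair-level test called 10, all to the distal site (against 1.14%, and 0.0367% the other way). At an unadjusted p under 0.05 there were 50, of which 47 to the distal site. DESeq2, which gave an adjusted p to 429 far pairs, called 22, all to the distal site. The share over all chains is not given for these last 2 counts, so they do not show a lean particular to far pairs. Pairs whose libraries did not overlap were nonetheless mainly higher under siPcf11, 248 against 55 lower of 578, or 42.9% and 9.52%, beside 29.4% and 10.3% of all chains. No single site passed the test of level (edgeR, 0.00% of all sites), although the median log2 change was -0.37 over 561 proximal and 0.24 over 591 distal sites. DESeq2 called 2 proximal sites higher and 15 lower, and 30 distal sites higher and 7 lower, the share over all sites not being given here. The count rests on single libraries. Without the first siPcf11 library 67 moved toward the distal site, with 17 the other way, without the second 28 and 2, and without either control none. The 2 siPcf11 libraries differed from each other more than any other replicates here, their chi-square per degree of freedom over kept sites being 21.5.

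The 4 pairs called by the main test in NIH3T3 all began with little distal use, while 7 of the 22 DESeq2 calls had a control share of 80% or more and 2 of the 10 pair-level calls one of 50 to 80%. At chr10:74998208-75000123 (plus strand) the distal share was 1.93% and 1.67% in controls and 9.34% and 11.0% under siPcf11 (adjusted p = 0.0121, edgeR). The same pair went from 0.517% and 0.733% to 7.98% and 7.99% in C2C12 total RNA, from 1.45% and 0.868% to 4.08% and 3.86% in 4sU RNA, and from 1.08% and 0.537% to 4.04% and 3.62% in differentiation, called each time. At chr7:129130236-129132279 (minus strand) it was 0.573% and 1.31% against 11.4% and 37.9% in NIH3T3, and 2.72% and 2.16% against 30.6% and 23.3% in C2C12 total RNA. At chr8:124073343-124075914 (minus strand) it was 7.55% and 5.28% against 25.9% and 29.5%. At chr15:96825253-96827199 (minus strand), a pair hardly read in C2C12, it was 7.79% and 7.55% against 32.1% and 38.1%.

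The pairs that moved in C2C12 also leaned that way in NIH3T3. Of the 96 pairs moved to the distal site in C2C12 total RNA and measured in NIH3T3, 88 had a higher mean distal share under siPcf11 there, with a median change of 15.0 percentage points, beside 400 of all 538 far pairs measured in NIH3T3 with both sites listed there, with a median of 4.84. Across 442 pairs the changes in the 2 lines had r 0.466. Tested as an interaction, none of 727 far pairs passed (edgeR, 44 at an unadjusted p under 0.05), beside 0.0278% of all chains with the larger distal move in NIH3T3 and 0.00% in C2C12. The pair-level test called 9, of which 3 moved further to the distal site in NIH3T3 (against 0.167% of all chains) and 6 in C2C12 (against 0.390%).

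In 4T1 cells labelled Pcf11-IPAKO the mean distal share of 491 far pairs was lower, at 42.8% ± 0.927 against 45.7% ± 0.838 in controls. Pairs whose libraries did not overlap were mainly lower: 135 against 35 higher, or 27.5% and 7.13% of the 491, beside 23.5% and 6.23% of all chains. No single pair passed the main test of 614 (edgeR, 22 at an unadjusted p under 0.05, of which 1 to the distal site, beside 0.00% of all chains called distal and 0.0731% proximal), and DESeq2 called 1 in each direction. Weighing both sites, the pair-level test called 1 pair (against 0.0731% of all chains toward the distal site and 0.293% the other way), chr6:124668405-124670735 (minus strand), picked after its values were seen. It moved against the rest, with a distal share of 10.5% and 12.8% in controls and 64.4% and 62.1% in Pcf11-IPAKO cells (adjusted p = 0.0123 at pair level, 0.114 in the main test, edgeR), its distal site rising by 3.48 ± 0.50 on the log2 scale. Few single sites passed the test of level: 5 of 568 proximal sites rose and none fell, and 2 of 486 distal sites rose and 1 fell (edgeR), beside 0.794% and 0.196% of all sites. The 4T1 replicates differed widely from each other. Their chi-square per degree of freedom over kept sites was 15.3 in controls and 14.2 in Pcf11-IPAKO cells, beside 2.07 to 3.18 in the C2C12 groups. Few calls therefore do not show that single pairs or sites stayed the same. Counts with the replicate block are given below, with the other alternatives.

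Pairs moved to the distal site in C2C12 total RNA were lower in 4T1 Pcf11-IPAKO cells about as often as all far pairs, in 66 of 86 cases beside 330 of 468, counting only pairs with both sites listed in 4T1. Their median change in 4T1 was -1.74 percentage points, and -2.03 over those 468. Over all 491 far pairs measured in 4T1, unlisted sites included, the median was -1.46. At chr11:4583388-4585702 (plus strand) the share was 37.9% and 40.3% in 4T1 controls and 17.7% and 21.2% in Pcf11-IPAKO cells, and 26.1% and 19.4% against 67.1% and 69.4% in C2C12 under siPcf11. Only the second difference was called (adjusted p = 7.11e-10, edgeR, and 1 in 4T1).

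Differentiation of C2C12 cells also came with more distal use. Of 714 far pairs, 71 moved to the distal site (9.94%, against 7.45% of all chains), and 24 to the proximal one (3.36%, against 3.12%). At pair level there were 160 (22.4%, against 15.9%) and 45 (6.30%, against 6.25%). Both differentiated libraries lay above both proliferating ones in 335 of 681 pairs and below them in 126, or 49.2% and 18.5%, beside 33.0% and 16.6% of all chains. Of 617 pairs of 200 to under 1000 nt, 14 were called distal and 21 proximal, while by non-overlapping libraries 181 of 598 were higher (30.3%) and 132 lower (22.1%). Without the first differentiated library the far pair counts were 37 and 9, and without the second 39 and 11.

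The largest rise was at chrX:98643930-98648880 (plus strand, 4950 nt), where the distal share was 0.233% and 0.559% in proliferating cells and 82.4% and 80.6% in differentiated cells (adjusted p = 9.36e-20, edgeR). The proximal site went from 110 to 66.5 CPM, and the distal site from 0.400 to 292 CPM. Whether this distal site is a later end of the same gene or the end of the next gene on the strand cannot be told from these files. At chr1:75482400-75487109 (minus strand) the share was 11.1% and 17.1% against 82.3% and 84.3%, with the proximal site at 7.26 and 8.19 CPM and the distal site going from 1.20 to 41.0 CPM. At chr10:82693593-82696088 (minus strand) it was 25.5% and 23.3% against 76.0% and 75.0%, there through the proximal site, which fell from 12.0 to 1.68 CPM. At chr2:150757003-150760034 (plus strand) it was 42.6% and 57.0% against 92.9% and 94.4%, with both ends moving apart.

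The largest fall in differentiation was at chr10:127927915-127931213 (minus strand, 3298 nt), from 69.2% and 63.5% to 2.14% and 1.53%, where the proximal site rose from 4.80 to 209 CPM and the distal site fell from 9.59 to 3.89 CPM. Here too the reads of the differentiated libraries count toward the rule. At chr7:88487616-88491912 (minus strand) the share was 53.0% and 45.3% against 15.6% and 18.5%, again through the proximal site, from 11.8 to 51.5 CPM, while the distal site stood at 11.6 and 10.5 CPM. At chr5:34976295-34981185 (minus strand) it was 91.7% and 92.1% against 68.8% and 58.3%, a call lost in all 4 fits with a library left out (adjusted p up to 0.450, edgeR). Of the 71 pairs called to the distal site, 22 had a lower proximal and a higher distal site, 16 only a higher distal site, 16 only a lower proximal site, 13 both ends higher and 4 both lower. The summed level of these pairs had a median log2 change of -0.25, and that of the pairs called to the proximal site 0.20. Over all far pairs 243 of 694 proximal sites fell and 150 rose, and 247 of 686 distal sites rose and 145 fell, where 29.1% of all sites rose and 28.2% fell. With library totals, which shift the median of all sites by -0.18, the distal sites were nearly balanced at 208 and 185.

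How far a pair moved varied with its distal share in the reference libraries. In C2C12 total RNA the mean change was 10.4 percentage points for pairs with a control share under 20% (172 pairs), 16.1 for 20 to 50% (124), 7.89 for 50 to 80% (132) and -0.76 for 80% or more (150). The last mean covers 87 pairs with a higher and 58 with a lower share, and its median was 0.93. In NIH3T3 the changes were 8.17, 10.2, 7.87 and 1.25 points, and in differentiation 4.60, 7.24, 5.00 and 1.57. In 4T1 Pcf11-IPAKO cells they were -0.591, -5.00, -5.35 and -2.79 points.

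Because the same controls set the bin and enter the change, the bins were also formed from 1 control library and the change taken against the other. The order of the bins in C2C12 total RNA held, with 14.6 and 14.0 points for 20 to 50%, but the change at 80% or more was then 0.216 and 0.00231 points, so its sign is not settled. At 50 to 80% the 2 ways gave 5.95 and 10.3 points.

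**Figure D4:**
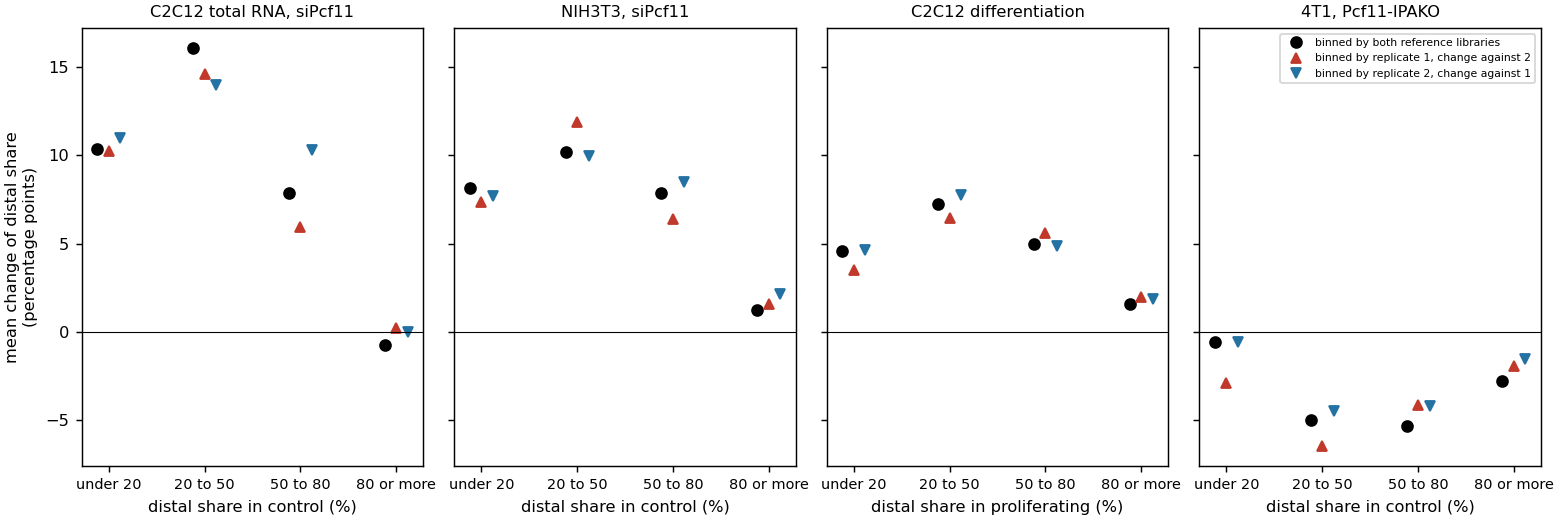
Mean change of the distal share (percentage points) of far pairs, by the distal share in the reference group (%); circles use both reference libraries for the bins, triangles use 1 for the bins and the other for the change. In C2C12 total RNA the 2 bins under 50% carry the largest changes, and the change at 80% or more lies near 0.

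The calls have a different dependence on the control share in each test. The main test called 77 pairs to the distal site in C2C12 total RNA at a control share under 20%, 40 at 20 to 50%, 8 at 50 to 80% and 0 of 156 at 80% or more. The pair-level test called 85 of 187 (45.5%), 69 of 178 (38.8%), 70 of 184 (38.0%) and 44 of 156 (28.2%), and DESeq2 64, 47, 38 and 28. The median control share of the pairs called to the distal site was 12.9% by the main test, 40.7% by the pair-level test and 33.3% by DESeq2. The lean of the calls to pairs of low distal share was thus far steeper with the main test than with the other two.

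The size of the change also differed between bins of the distance between the sites, a difference that was not tested. In C2C12 total RNA the mean distal share was higher under siPcf11 by 4.76 ± 0.935 points at 1000 to under 2000 nt (269 pairs), by 12.5 ± 0.692 at 2000 to under 3000 nt (148), by 11.5 ± 0.366 at 3000 to under 4000 nt (94) and by 7.29 ± 0.668 at 4000 to 5000 nt (67), each with the SD of the difference of 2 libraries against 2. The 2 middle values differ by about 1 point. These SDs give the spread between libraries over a fixed set of pairs. They leave out the spread between pairs, so they cannot show whether bins of different pairs differ. The bins also differ in control share, with means of 51.4%, 45.5%, 46.0% and 46.9%. In 4sU RNA the changes were 4.74, 9.41, 8.20 and 5.32 points. In NIH3T3 they were 5.87 ± 0.192, 6.70 ± 0.968, 8.22 ± 4.00 and 5.13 ± 1.38. Differentiation gave 3.75 ± 0.236, 4.82 ± 0.616, 6.87 ± 0.518 and 4.58 ± 0.555, and 4T1 Pcf11-IPAKO cells -3.14 ± 0.879, -2.90 ± 1.62, -3.15 ± 2.87 and -1.36 ± 0.627. Pairs called to the distal site in C2C12 total RNA had a median distance of 2365 nt, those called to the proximal site 3123.5 nt and pairs not called 1980 nt.

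**Figure D5:**
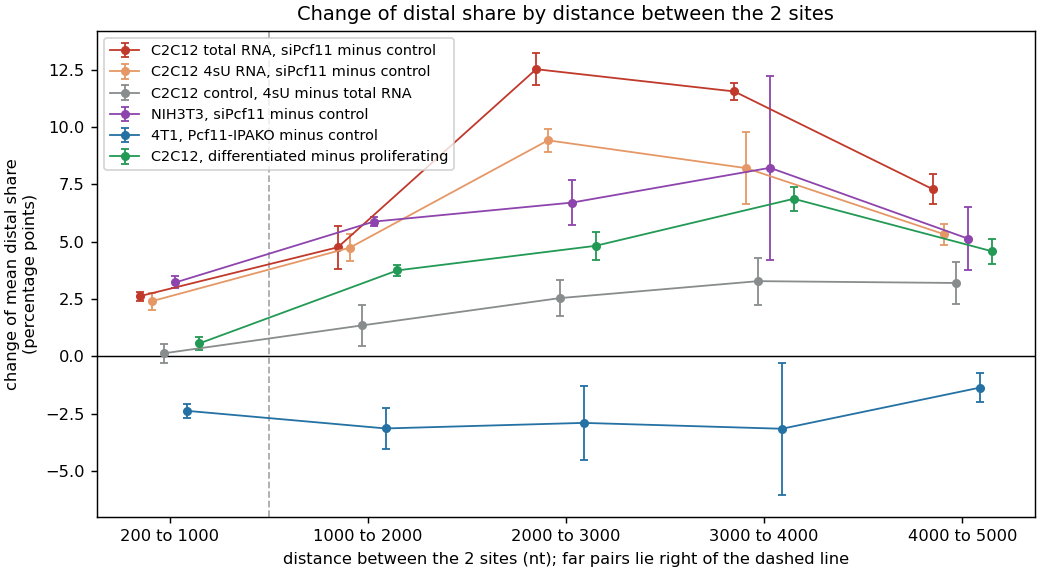
Change of the mean distal share (percentage points) by the distance between the 2 sites (nt), with bars for the SD of the difference (2 libraries against 2); the leftmost points are closer pairs outside the set. C2C12 total RNA peaks at 12.5 points for 2000 to 3000 nt (upper end not included), and 4T1 lies below 0 in every bin.

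Over the 4 comparisons C2C12 total RNA, 4sU RNA, NIH3T3 and differentiation, 224 far pairs were called in at least 1 (30.1%, against 20.1% of all chains of 2 or more kept sites) and 519 in none. Calls to the distal site in 3 or more of them were made for 28 pairs (3.77%, against 1.79%) and calls to the proximal site for 4 (0.538%, against 0.241%). Total and 4sU RNA of the same siPcf11 treatment make up 2 of the 4. At chr11:101832457-101834781 (minus strand) the share was 41.3% and 29.0% against 74.7% and 84.1% under siPcf11 in total RNA, and 35.7% and 30.0% against 47.2% and 61.9% in differentiation, where the call was lost without the second differentiated library. At chr8:72430972-72432555 (minus strand) it was 16.8% and 19.2% against 57.0% and 45.2% under siPcf11 and 12.0% and 18.2% against 37.2% and 36.1% in differentiation. The ends differed: under siPcf11 the distal site of the latter rose from 13.7 to 67.4 CPM, and in differentiation its proximal site fell from 104 to 36.2 CPM. At chr11:100953513-100957839 the distal share was lower in both, in differentiation at 22.2% and 17.3% against 58.9% and 66.3%.

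The responses to siPcf11 and to differentiation overlapped in part. They share no library. Of the pairs moved to the distal site, 32 were common, 25.6% of the 125 under siPcf11 and 45.1% of the 71 in differentiation, and 6 were moved to the proximal site in both. Of all far pairs tested, 17.7% moved to the distal site under siPcf11 and 9.94% in differentiation. Both lists lean to a low reference share: it was under 20% in 77 of the 125 and 41 of the 71. How far this adds to the overlap was not tested. Across 569 pairs the changes had r 0.231. In opposite directions, 5 pairs moved to the distal site under siPcf11 and the proximal site in differentiation, and 1 the other way. At chr10:79634400-79637865 (plus strand) the share was 38.3% and 38.7% in C2C12 total RNA controls and 75.5% and 75.8% under siPcf11, but 35.0% and 35.0% in proliferating and 20.1% and 19.9% in differentiated cells (adjusted p = 0.00167 and 0.00147, edgeR). The proximal site fell from 49.7 to 6.23 CPM in the first and rose from 57.8 to 105 CPM in the second. The pair with the largest rise under siPcf11, chr19:5455946-5458049, was at 27.9% and 28.5% in proliferating and 0% and 11.1% in differentiated cells (adjusted p = 0.0435, edgeR), its shallowest library holding only 17 reads. That call was kept in 1 of 4 fits with a library left out.

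The pairs with the most reads were mostly lopsided. At chr19:44377843-44381354 (plus strand) the distal share was between 98.8% and 100% in all libraries. At chr4:138657729-138659702 (minus strand) it was 0.129% and 0.477% in C2C12 total RNA controls and 3.06% and 3.85% under siPcf11 (adjusted p = 1.89e-21, edgeR), the distal site going from 3.09 to 49.8 CPM. At chr12:114392090-114397009 (plus strand) the distal site held 0.512% and 0.401% of the reads in controls and no read in either siPcf11 library of total RNA, where the shallower held 2095 reads of the pair (adjusted p = 1.12e-05, edgeR). At such depths a shift of under 1 percentage point passed the test.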

How the data were processed

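The deposited 3′READS files list, for each library, a chromosome, strand, position and read count in mm9. The values are whole-number counts that the authors did not normalize, as the differing totals show. Cutadapt, Bowtie2 and STAR are named without versions or roles in the submitters' processing notes. The sources used here do not give how reads were grouped into positions or whether random bases in the adapters served to remove PCR copies. The series' 2 RNA-seq libraries were left out.

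Reads of each chain were split into the most distal kept site and all others. Distal use was tested with diffSpliceDGE and single site levels with glmQLFTest (edgeR 4.0.16, limma 3.58.1, R 4.3.3), on TMM-scaled counts, with filterByExpr (minimum count 10), over all chains or sites, with Benjamini-Hochberg adjustment. The 8 C2C12 siRNA libraries were fitted together, NIH3T3, 4T1 and the differentiation set each alone, and the test of C2C12 against NIH3T3 over both. Distal shares were averaged over pairs with 20 or more reads in each library compared. Methods were tested on simulated counts. Alternatives were DESeq2 1.42.0, other scalings, no filter, gaps of up to 3000 nt, 500 pooled reads, keeping sites by libraries outside the fit, the replicate block and each library left out. Joined positions and the pair-level test were later additions, made with the data seen. Tables and figures were made with matplotlib 3.10.9, numpy 2.4.6 and pandas 2.3.3 in Python 3.11.15.

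The members, lists and rules were chosen with earlier results of these data known. Named pairs are, per comparison, those among the 6 largest rises and 6 largest falls that were called, did not overlap and held 20 or more reads in each library. Further named were up to 6 pairs called alike in 3 or more comparisons, 6 called in opposite directions by siPcf11 and differentiation, the 5 with most reads, and those at the thresholds. Chromosome 18 is not named. The chi-square per degree of freedom between replicate libraries was 2.07 to 21.5, more than counting noise, and each library was counted as a sample. PCR copies make reads dependent on each other.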

Additional observations from a re-analysis of the deposited data

Results flagged for a closer look

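In the test of the difference between the responses to siPcf11 in 4sU and in total RNA, 2 far pairs passed. At chr1:134879713-134882797 (minus strand, 3084 nt) the distal share was 7.11% and 8.52% in total RNA controls and 47.2% and 48.8% under siPcf11, and 19.7% and 31.1% against 49.2% and 50.0% in 4sU RNA. The control libraries differ between the RNA kinds here more than the siPcf11 libraries do. The response in 4sU RNA was smaller by -1.10 on the log2 scale of the fit (adjusted p = 0.0482, edgeR), a call kept in 1 of 8 fits with a library left out. At chr4:138657729-138659702 (minus strand) the distal share was 0.129% and 0.477% against 3.06% and 3.85% in total RNA, and 0.681% and 0.398% against 1.75% and 0.973% in 4sU RNA. Its coefficient was -1.49 with the same adjusted p, kept in 4 of 8 such fits. With DESeq2 the adjusted p was 1.00 for both, and without the filter on low counts 0.0503.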

How the results depend on the processing

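Each result was recomputed with 1 choice changed. Of 85 calls of distal use at named pairs, 861 of 979 alternative values kept the call, 118 lost it and none turned, and 47 of these calls, at 32 pairs, were kept throughout. Of 140 calls of level at single sites, 1149 of 1259 were kept and none turned.

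Counts of far pairs called for distal use, both directions summed, moved by over 1.5 times as follows. The pair-level F test gave 327 in C2C12 total RNA, 277 in 4sU RNA, 75 between 4sU and total RNA of controls, 10 in NIH3T3, 1 in 4T1 and 205 in differentiation. Gaps of up to 3000 nt gave 94, 75, 10 and, for differentiation, 51, with fewer pairs in the set. DESeq2 gave 5 between 4sU and total RNA, 22 in NIH3T3 and 2 in 4T1, sites kept by libraries outside the fit 2 in NIH3T3, and joined positions 1 in 4T1. With a library left out the counts were 78 to 85 in 4sU RNA, 3 to 10 between 4sU and total RNA, 0 to 84 in NIH3T3, 0 to 1 in 4T1 and 46 to 79 in differentiation. Calls of the response in 4sU against total RNA were 0 with DESeq2, gaps of up to 3000 nt or no filter and 0 to 1 with a library left out. For C2C12 against NIH3T3 they were 9 at pair level and 0 to 37 with a library left out. The causes of these moves were not tested.

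Deviations of same-numbered libraries correlated weakly in C2C12. The values were -0.0565 to 0.0795 in the ratio of distal to other reads and -0.0482 to 0.168 in the level of the chain. In NIH3T3, differentiation and 4T1, with 1 pair of groups each, the correlation was 0.0699, 0.111 and 0.352 in the ratio and 0.133, 0.0993 and 0.583 in the level, and the libraries share only a number. With the replicate block the calls of distal use were 128 distal and 29 proximal in C2C12 total RNA, 98 and 25 in 4sU RNA, 6 and 0 in NIH3T3, 1 and 5 in 4T1 (6 in all) and 80 and 26 in differentiation. Level calls under the block were 120 in NIH3T3 and 78 in 4T1.

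Level calls over both ends also moved with the scaling. Between 4sU and total RNA of controls, more rose than fell with TMM, while more fell with DESeq2 size factors (291), DESeq2 (141), library totals (288) and in all 4 fits with a library left out (127 to 243). In differentiation more fell with library totals (811). DESeq2 gave 54 in NIH3T3, no filter 15 in 4T1, and a library left out 3 to 530 in NIH3T3 and 8 to 16 in 4T1.

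The difference in mean distal share, in percentage points, was 7.00 in C2C12 total RNA with 50 reads per pair. With reads summed over pairs it was 8.97 there, 5.83 in 4sU RNA, 0.141 between 4sU and total RNA, 7.96 in NIH3T3 and 13.0 in differentiation. In NIH3T3 it was 5.47 with sites kept by other libraries, and in differentiation 5.62 with 500 pooled reads and 3.93 with gaps of up to 3000 nt. By distance, joined positions gave 8.48 in 4sU RNA and 11.6 in total RNA at 2000 to under 3000 nt and 7.49 in differentiation at 3000 to under 4000 nt.

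By control share, binning by 1 control library and taking the change against the other moved several means. For C2C12 total RNA they were 11.0 under 20%, 14.6 and 14.0 at 20 to 50%, 5.95 and 10.3 at 50 to 80%, and 0.216 and 0.00231 at 80% or more, where the sign turned. For 4sU RNA they were 6.84 under 20% and 0.256 at 80% or more, where it turned too. For 4sU against total RNA they were 2.70 and 2.76 under 20%, 3.83 at 50 to 80% and -0.668 at 80% or more. They were -2.91 under 20% and -1.92 and -1.52 at 80% or more in 4T1, 6.41 at 50 to 80% in NIH3T3, and 3.52, 5.62 and 1.96 under 20%, at 50 to 80% and at 80% or more in differentiation.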

Other observations

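Control cells of the lines used the sites of far pairs differently, while the average over pairs was alike. Between C2C12 total RNA controls and NIH3T3 controls, the distal share differed by over 20 percentage points in 184 of 528 pairs (34.8%) and by over 50 in 36, although the mean share was 47.8% and 49.9%. Only pairs with both sites listed in both lines enter, since the files list different positions for each line. With positions within 24 nt joined, a setting chosen after seeing the data, the counts were 241 of 682 (35.3%) and 48. Between C2C12 and 4T1 controls 135 of 490 pairs differed by over 20 points (185 of 620 joined), and between NIH3T3 and 4T1 controls 115 of 439 (160 of 597 joined). The 2 untreated C2C12 sets, controls of the siRNA experiment and proliferating cells, differed by so much in 6 of 651. These values compare means of 2 libraries. Between the 2 single libraries of a group, 22 of 652 pairs differed by so much in C2C12 total RNA controls and 15 of 693 in proliferating cells. It was 32 of 582 in NIH3T3 controls and 51 of 526 in 4T1 controls. Across pairs, as a description, the share in C2C12 total RNA controls had r 0.713 with NIH3T3, 0.803 with 4T1 and 0.980 with proliferating C2C12 cells, where the 2 total RNA control libraries had 0.967 with each other. An example is chr1:75482400-75487109 (minus strand), whose distal share was 0% and 9.09% in C2C12 total RNA controls and 93.8% and 95.5% in NIH3T3 controls, and which was read in no 4T1 library.

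In 6 places outside chromosome 18, which was left out of this search, 2 far pairs on opposite strands run toward each other or overlap. At one of them, chr11:120582442-120585283 on the plus strand and chr11:120586714-120590803 on the minus strand, the distal sites lie 1431 nt apart and the pairs were called in opposite directions under siPcf11. In C2C12 total RNA the distal share of the plus-strand pair was 7.89% and 15.5% in controls and 73.7% and 64.1% under siPcf11, and that of the minus-strand pair 39.7% and 32.3% against 9.09% and 8.33%. In 4sU RNA the changes were 63.6 and -40.7 percentage points. In 4T1 Pcf11-IPAKO cells they were -24.9 and 28.3, neither called. At another, chr11:100947932-100952832 (plus strand) and chr11:100953513-100957839 (minus strand), with distal sites 681 nt apart, both distal shares were lower in differentiated cells, by -11.0 and -42.8 points, both called. These places were picked after their values were seen.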
